A study of Mus musculus with 4 samples.

Results

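Wnt ligands, receptors and effectors are described here as 44 genes, chosen by name, of the 34328 protein-coding and lncRNA genes of the mouse gene table (21631 of them protein-coding). They comprise 14 ligands, 10 Frizzled receptors, 2 LRP co-receptors, 3 Dishevelled proteins, 4 members of the destruction complex, beta-catenin, 4 TCF/LEF transcription factors, 2 receptor ubiquitin ligases and 4 secreted inhibitors. For each gene the window was its RefSeq body with 10 kb on both sides. Acetylated lysine 27 on histone 3 (H3K27ac) marks promoters and enhancers in use, and its peaks were counted in each window in the list of each culture.

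Wnt proteins are secreted lipid-modified ligands that bind Frizzled receptors together with the co-receptors Lrp5 and Lrp6. Without a ligand, a complex of Axin, Apc and Gsk3b marks beta-catenin for degradation, and with a ligand the complex is held at the membrane through Dishevelled, so that beta-catenin enters the nucleus and acts with TCF/LEF factors. In the embryonic brain the pathway is known for patterning and for keeping neural progenitors dividing, and Axin2, Rnf43 and Znrf3 are classical feedback targets that dampen it.

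The neural stem cells came from female E14.5 mouse embryos. The starting lines carried 1 deleted and 1 floxed allele of Smchd1, which encodes a protein that helps silence the inactive X, together with a 129-derived maternal X bearing an Xist deltaA allele and a Castaneus paternal X. The deleted culture (Smchd1 del/del) had received the MSCV-Cre-puro retrovirus, puromycin from 24 h, and was collected on day 7, whereas the control culture was left untransduced. Deletion, transduction and drug selection therefore cannot be told apart. Each line had been split into a transduced and an untransduced arm, and both ChIP titles carry the number 1. Each culture gave 1 ChIP library and 1 whole-cell-extract input library, so no difference below has a replicate check. Several labels disagree: the antibody field names H3K27me3, and the control ChIP is titled fl/fl but its genotype field reads del/fl. That field gives the genotype described for the starting lines, in which 1 Smchd1 allele was already deleted. The genotype field of the control input reads del/del.

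The deleted ChIP library was deeper, with 54194233 filtered tags against 42277672 in the control library (ratio 1.28), and its list was longer, with 91557 against 63613 peaks on chromosomes 1 to 19 and X. Fold enrichment, the authors' ratio of ChIP signal to background at a peak, is given for each list on its own and was not rescaled here between libraries. For 85.4% of deleted and 83.9% of control peaks that background was within 2% of the lowest value of the list, so that their fold follows the number of tags. The same 17 tags gave a fold of 3.02 in the deleted list (at Wnt3) and 3.63 in the control list (at Axin2), and a fold of 5 needed at least 29 tags in deleted and 24 in control cells. All 10 neural stem cell markers had a window peak in both lists, with the highest folds at Sox2 (20.7 in deleted and 20.6 in control cells) and Olig2 (20.7 and 22.4). A peak within 1 kb of the transcription start was found in both lists at 7 of the 8 neural stem cell markers whose start is known. It was found in both lists at 1 of 6 neuron, 1 of 3 astrocyte and 0 of 1 oligodendrocyte markers. Start peaks in the deleted list only were found at Gfap, of astrocytes, and Gad1, of inhibitory neurons. No such peak was found in either list at 3 fibroblast, 3 microglia, 2 endothelial and 3 pluripotency markers with a known start. Markers of other cell types did have window peaks in both lists, at 3 of 8 neuron, 4 of 4 astrocyte, 3 of 4 oligodendrocyte, 2 of 6 fibroblast, 3 of 4 microglia, 2 of 4 endothelial and 1 of 3 pluripotency genes. Over all protein-coding genes that share was 64.4%. In both lists the most enriched peak was within 1 kb of another gene's end at Aif1 (microglia), Gfap (astrocyte), Myrf (oligodendrocyte), Tubb3 (neuron) and Hes5 (neural stem cell). Pecam1, of endothelial cells, had 18 in each list, up to 7.33 in deleted and 9.28 in control cells, and Col1a1, of fibroblasts, had 11 in deleted and 7 in control cells. Their part in the results was not tested. Window peaks in the deleted list only were found at Gad1 (3.86), at Cdh5 (3.02), of endothelial cells, and at Nanog (4.37), of pluripotent cells. In a bulk culture, fewer cells of a type and less acetylation per cell cannot be told apart.

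Several stretches of promoter sequence show where the mark was and was not found. Each is the 250 bases before a RefSeq transcription start on GRCm38.p6, written in the direction of transcription with every CG dinucleotide in capitals. The first 3 belong to genes with a peak within 1 kb of the start in both lists, namely the feedback inhibitor Axin2, the receptor Fzd9 and the transcription factor Tcf7l2 at its upstream start.
Axin2 (chr11:108920099-108920348, plus strand): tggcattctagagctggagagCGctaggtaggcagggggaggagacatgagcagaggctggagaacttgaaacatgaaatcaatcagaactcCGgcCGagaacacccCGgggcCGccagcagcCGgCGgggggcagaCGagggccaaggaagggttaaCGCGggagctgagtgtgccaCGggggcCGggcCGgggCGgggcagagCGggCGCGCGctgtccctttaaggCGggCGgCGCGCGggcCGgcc
Fzd9 (chr5:135251048-135251297, minus strand): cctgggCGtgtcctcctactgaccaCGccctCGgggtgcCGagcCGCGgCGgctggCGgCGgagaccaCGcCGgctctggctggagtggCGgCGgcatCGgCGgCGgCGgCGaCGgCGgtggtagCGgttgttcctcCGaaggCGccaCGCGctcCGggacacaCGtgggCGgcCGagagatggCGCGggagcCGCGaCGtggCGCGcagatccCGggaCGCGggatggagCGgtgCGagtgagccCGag
Tcf7l2 (chr19:55741560-55741809, plus strand): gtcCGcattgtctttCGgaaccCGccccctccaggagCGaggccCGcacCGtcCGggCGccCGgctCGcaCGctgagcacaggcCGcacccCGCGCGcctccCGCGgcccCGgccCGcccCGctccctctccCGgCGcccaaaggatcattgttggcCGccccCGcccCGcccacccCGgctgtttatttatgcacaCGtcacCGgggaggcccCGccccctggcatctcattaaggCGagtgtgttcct
The next 3 belong to genes with no H3K27ac peak anywhere in their windows in either list, namely the ligands Wnt1 and Wnt3a and the transcription factor Lef1 at its most upstream start.
Wnt1 (chr15:98789607-98789856, plus strand): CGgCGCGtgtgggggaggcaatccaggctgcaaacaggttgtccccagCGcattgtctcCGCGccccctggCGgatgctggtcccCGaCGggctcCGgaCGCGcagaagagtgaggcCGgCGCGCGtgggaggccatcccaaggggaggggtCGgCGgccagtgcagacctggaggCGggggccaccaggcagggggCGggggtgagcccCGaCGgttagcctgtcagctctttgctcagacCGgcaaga
Wnt3a (chr11:59290752-59291001, minus strand): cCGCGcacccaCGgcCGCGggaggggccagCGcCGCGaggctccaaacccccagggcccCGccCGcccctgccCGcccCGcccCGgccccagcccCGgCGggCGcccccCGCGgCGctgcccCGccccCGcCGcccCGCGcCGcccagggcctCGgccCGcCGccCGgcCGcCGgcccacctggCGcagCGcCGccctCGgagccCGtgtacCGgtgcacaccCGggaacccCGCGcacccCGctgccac
Lef1 (chr3:131110047-131110296, plus strand): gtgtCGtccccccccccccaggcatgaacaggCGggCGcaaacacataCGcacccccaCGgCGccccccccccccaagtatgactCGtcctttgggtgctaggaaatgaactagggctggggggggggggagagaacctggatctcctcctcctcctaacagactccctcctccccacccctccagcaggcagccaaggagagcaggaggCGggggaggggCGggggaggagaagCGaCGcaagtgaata
The stretch of Axin2 holds 24 CG dinucleotides, that of Fzd9 42 and that of Tcf7l2 30, against 23 for Wnt1, 41 for Wnt3a and 11 for Lef1. The pairs Fzd9 and Wnt3a, and Axin2 and Wnt1, thus have nearly the same number, with start peaks at only the first gene of each pair.

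Most Wnt pathway genes had H3K27ac peaks in both cultures. Of the 44 members, 31 (70.5%) had a window peak in both lists, 6 (13.6%) only in the deleted list, 0 only in the control list and 7 (15.9%) in neither. Over all 34328 genes the same classes took 55.2%, 7.85%, 1.35% and 35.6%, and over the 21631 protein-coding genes 64.4%, 5.48%, 0.869% and 29.3%. The members' share in both lists was thus a little above that of protein-coding genes, and their share in the deleted list only was higher, on a count of 6. No test was made of either difference.

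Peaks were unevenly divided between secreted and other members, a split made after the values were seen. Of the 18 secreted members, the ligands and inhibitors, 7 (38.9%) had peaks in both lists, 6 (33.3%) only in the deleted list and 5 (27.8%) in neither. Of the 26 membrane and intracellular members, 24 (92.3%) had peaks in both lists, 0 in a single list and 2 (7.69%), the receptor Fzd6 and the transcription factor Lef1, in neither. The genes that receive and transmit the signal therefore nearly all had peaks in both cultures, and the 6 members with peaks in 1 list only all encode secreted proteins at these settings. The calls rest on the settings: with a flank of 50 kb the members in 1 list only were Sfrp1 (deleted) and the receptor Fzd6 (control). At a fold enrichment of at least 5 they were the co-receptor Lrp6 (deleted) and Wnt7a, Fzd8 and Tcf7 (control), most of which are not secreted.

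**Figure D1:**
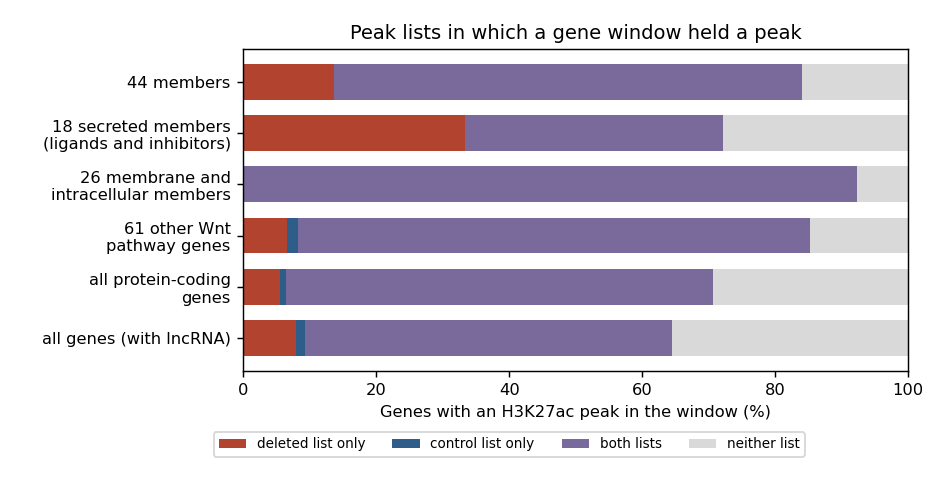
Share of genes (%) whose window held an H3K27ac peak in the deleted list only, the control list only, both lists or neither, for the 44 members, their secreted and other members, 61 other Wnt pathway genes, all protein-coding genes and all genes. With the 10 kb flank and all deposited peaks, the deleted-only class takes 33.3% of secreted members and 0% of membrane and intracellular members. Over all protein-coding genes it takes 5.48%. With a flank of 50 kb only Sfrp1 of the members was in that class. At a fold of at least 5 only Lrp6 was in it, which had peaks in both lists at the reported settings.

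The ligands fell into 3 of the 4 classes. Of 14 ligand genes, 6 had peaks in both lists (Wnt4, Wnt5a, Wnt5b, Wnt7a, Wnt7b and Wnt11), 4 in the deleted list only (Wnt2b, Wnt3, Wnt6 and Wnt8b) and 4 in neither (Wnt1, Wnt2, Wnt3a and Wnt10a). Ligand windows held 90 peaks of the deleted list and 64 of the control list.

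Wnt7b, a ligand of cortical progenitors, had the most peaks of all ligands, 30 in deleted and 27 in control cells, with no overlap in the other list for 9 and 4 of them. Its most enriched peak reached 6.38 in deleted cells at chr15:85566535-85567141, against 7.26 in control cells at chr15:85576826-85578120. Its peaks covered 14.8 kb in the deleted list and 11.1 kb in the control list. The acetylation of Wnt7b was therefore spread over many weak to moderate peaks along the gene body in both cultures.

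Wnt7a, its close relative, also a ligand of cortical progenitors, had 27 peaks in deleted and 14 in control cells. Of these, 16 deleted peaks and 2 control peaks overlapped nothing in the other list. The highest fold was 4.87 in deleted cells and 5.45 in control cells. The most enriched deleted-only peak of Wnt7a, at chr6:91384520-91384809, had a fold of 4.70 and lay 26.7 kb inside the gene. The start of Wnt7a carried a peak in both lists, of 4.87 in deleted and 4.24 in control cells, and that of deleted cells ran up to the start base itself.

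Wnt5a, a ligand mostly of the beta-catenin-independent branch, had the most enriched ligand peak that was not at another gene. It had 12 peaks in each list, covering 8.46 kb in deleted and 5.16 kb in control cells. Its highest fold was 11.8 in deleted cells (chr14:28504710-28507336) and 8.88 in control cells (chr14:28504708-28506724), and this peak began just inside the lower-coordinate end of the gene in both lists. Only 3 deleted peaks and no control peak of Wnt5a lacked a partner in the other list.

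Wnt5b, a paralog of Wnt5a, had 13 deleted and 6 control peaks. The highest reached 12.1 in deleted and 11.7 in control cells, but it lies within 1 kb of an end of Fbxl14, a gene within the Wnt5b interval. Away from other genes the highest fold was 4.20 in deleted and 4.64 in control cells. At the most downstream of its 3 starts Wnt5b had a weak peak of 3.02 in the deleted list and none in the control list.

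The remaining ligands with peaks in both lists had few and weak ones. Wnt4 had 2 deleted peaks and 3 control peaks, with a highest fold of 3.69 in deleted and 4.04 in control cells. Wnt11 had 1 deleted peak (3.02) and 2 control peaks (3.23 and 2.67), and none of the 3 overlapped another. Wnt11 is thus counted in both lists without sharing any position. Neither gene had a peak within 1 kb of a start in either list.

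The 4 ligands with peaks in the deleted list only had 5 such peaks in all, with folds between 3.02 and 4.03. Wnt2b, a ligand of the cortical hem, had a peak of 4.03 at chr3:104967735-104968067, in its upstream flank, and a second of 3.14 at chr3:104946232-104946402, which also lies within St7l. Wnt3 had a peak of 3.02 inside the gene at chr11:103810416-103810593. Wnt6 had a peak of 3.53 at chr1:74775703-74775901, inside the gene. Wnt8b, another ligand of the hem, had a peak of 3.02 at chr19:44515006-44515188, just past the 3′ end of the gene.

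Those peaks rested on few tags. The pileup, which is the number of overlapping tags at the summit, was 23 and 21 at Wnt2b, 17 at Wnt3, 20 at Wnt6 and 17 at Wnt8b. Multiplied by 0.78, the ratio of control to deleted depth, the pileups fall between 13.3 and 17.9, against a lowest pileup of 12 among control peaks. They ranked between percentiles 18.5 and 63 of the fold enrichments of the deleted list. None of the 4 genes had a peak at its start. With the deleted list shortened to the length of the control list, Wnt2b and Wnt6 stayed in the deleted list only, while Wnt3 and Wnt8b had a peak in neither. At −log10 q of at least 5, Wnt2b alone of the 4 kept its peak.

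Frizzled receptors, the seven-pass receptors of Wnt proteins, were acetylated in both lists at 9 of 10 genes, all but Fzd6. Their windows held 45 deleted and 32 control peaks, of which 16 (35.6%) of the deleted and 2 (6.25%) of the control list overlapped nothing in the other. Over the whole lists these shares were 50.6% and 24.3%, and over peaks within 1 kb of any protein-coding start 19.8% and 5.12%.

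Fzd1 had the most enriched peak of the family in deleted cells and the next most enriched in control cells, 11.4 in deleted cells at chr5:4756311-4757962 and 10.8 in control cells at chr5:4756433-4757959. Fzd9 had the most peaks of the family, 13 in deleted and 10 in control cells, in a window of 22.1 kb, or 5.88 and 4.52 peaks per 10 kb. Its highest fold was 9.23 in deleted and 11.3 in control cells, at a peak that spans nearly the whole gene in both lists. A further wide Fzd9 peak in the upstream flank had a fold of 7.22 in deleted and 7.40 in control cells. In each list only 1 of the Fzd9 peaks overlapped the gene body. The others lay in the flanks, some of them within the body of Baz1b in both lists. The dense acetylation of the Fzd9 window was thus present in both cultures.

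Fzd10 had 4 deleted and 2 control peaks. Upstream of its start the highest peak reached 9.91 in deleted and 7.06 in control cells. Fzd3, a receptor of axon guidance and planar polarity, had 9 deleted and 8 control peaks, with a highest fold of 9.07 in deleted and 8.27 in control cells. The other receptors had 5 or fewer peaks in either list. Fzd2 reached 5.54 in deleted and 7.67 in control cells, Fzd5 5.71 and 5.04, Fzd7 6.38 and 6.40, and Fzd8 4.20 and 5.45. Fzd4 reached 6.21 in deleted and 6.05 in control cells at a start peak that is also within 1 kb of an end of Tmem135. Every receptor gene but Fzd6 thus had a peak within 1 kb of its start, or of a gene end where no start is listed, in both cultures.

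The LRP co-receptors both had peaks in both lists. Lrp5 had 25 deleted and 17 control peaks, its highest fold of 7.72 in deleted and 7.26 in control cells falling within 1 kb of an end of Ppp6r3. Away from other genes it reached 6.57 in deleted and 5.17 in control cells. Lrp6 had 10 deleted and 2 control peaks, the largest ratio of peak numbers among the 31 members with peaks in both lists. Its highest fold was 7.39 in deleted and 4.83 in control cells.

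The Lrp6 locus also held the most enriched list-only peak of all member windows. At chr6:134567010-134567217, just beyond the higher-coordinate end of the gene, the deleted list had a peak of 7.39 with a pileup of 43 tags, or 33.5 tags scaled to the control depth. Control cells had no peak over that interval, though peaks of 4.83 and 4.40 flanked it, the nearer 124 bases away. In deleted cells the same flanking peaks had folds of 6.38 and 4.20. The region around the Lrp6 gene end was thus acetylated in both cultures and differed in 1 interval of 208 bases. The other 7 deleted-only peaks of Lrp6 had folds of 3.69 or less.

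Neighbouring peaks of the lists can also miss each other by a few bases. In Lrp5 a deleted-only peak of 5.21 at chr19:3669133-3669552 stood 53 bases from a control-only peak of 5.17 at chr19:3669605-3669945. These are the third most enriched deleted-only peak, level with 1 at Fzd2 (5.21 at chr11:102604385-102604604), and the most enriched control-only peak of all member windows. Of the 171 deleted-only member peaks, 44 (25.7%, exact 95% interval 19.4 to 33.0) lay within 500 bases of a control peak, against 24.4% of such peaks in the whole list. Of the 51 control-only member peaks, 19 (37.3%, 24.1 to 51.9) lay within 500 bases of a deleted peak, against 37.1% in the whole list.

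The 3 Dishevelled genes, whose products carry the signal from Frizzled to the destruction complex, had peaks at their own starts in both lists. The start peaks of Dvl3 reached 10.7 in deleted and 9.48 in control cells, those of Dvl2 8.23 and 7.46, and those of Dvl1 7.39 and 5.85. The start peak given for Dvl2 is also within 1 kb of an end of Phf23 in both lists. The windows of the 3 genes also held still more enriched peaks next to other genes. Those were of 12.8 in deleted and 13.9 in control cells at Dvl2, near Gabarap and Phf23, of 11.2 and 14.1 at Dvl3, near Ap2m1, and of 8.73 and 8.47 at Dvl1, near Mxra8. The Dvl2 window had 19 deleted and 15 control peaks, the densest of all members at 6.44 and 5.08 per 10 kb. Only 6 of these deleted and 3 of these control peaks overlapped the Dvl2 body. Away from the ends of other genes there were 10 deleted and 6 control peaks. Dvl3 went the other way from most members, with 5 deleted and 9 control peaks. Of its control peaks, 4 had no deleted partner, among them a peak of 4.24 at chr16:20529017-20529202.

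The destruction complex had peaks in both lists at all 4 genes. Gsk3b, the kinase that marks beta-catenin, had its peaks almost all near the start, 6 in deleted and 7 in control cells within a window of 177 kb. Its highest fold was 13.4 in deleted cells (chr16:38089516-38091367) and 9.28 in control cells (chr16:38089532-38091400). A control-only peak of 4.64 at chr16:38089059-38089233 fills part of the gap between this peak and the one upstream of the start. Apc, the scaffold whose loss activates the pathway in colon tumours, reached 12.8 in deleted and 14.7 in control cells, with 15 and 12 peaks. Axin1 reached 8.90 and 7.26 at a peak near Mrpl28 and Pgap6, and 5.71 in deleted and 4.44 in control cells away from other genes.

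Axin2, a direct target of beta-catenin in many tissues and a scaffold of the destruction complex, had 19 peaks in deleted and 8 in control cells. Its peaks covered 7.29 kb in deleted and 3.6 kb in control cells, and 12 deleted and 2 control peaks had no partner. The highest fold was 12.9 in deleted cells at chr11:108921013-108922516 and 8.27 in control cells at chr11:108921384-108922876, which is percentile 94.6 of the genes with a deleted peak and 66.7 of those with a control peak. The Axin2 peak just past the start had a fold of 9.07 in deleted and 5.25 in control cells, which is percentile 91.6 and 67.4 of the peaks shared 1 to 1 in each list. The peak upstream of the start had 8.23 in deleted and 6.2 in control cells (percentiles 88.1 and 77.8). The peak 3.09 kb past the start had 5.04 in deleted and 3.43 in control cells (percentiles 61.6 and 17.8). A weak shared peak further upstream had 3.86 in deleted and 3.63 in control cells (percentiles 35.7 and 25.2). The shared peak 28.6 kb past the start went the other way, with 4.37 in deleted and 4.84 in control cells (percentiles 48.9 and 60.8). Of the 5 Axin2 peaks shared 1 to 1, the 4 near the start thus ranked higher within the deleted list and the 1 far from it ranked lower, in 1 library per culture.

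Ctnnb1, which encodes beta-catenin, had 3 peaks in each list. Its highest fold was 6.88 in deleted and 5.04 in control cells, within 1 kb of the start in both.

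The TCF/LEF factors, the DNA-binding partners of beta-catenin, spanned the whole range of the members. Tcf7l2, the main family member of many neural cells, had the most peaks of all 44 genes, 40 in deleted and 28 in control cells, covering 18.5 and 12.6 kb of a window of 212 kb. It also had the highest fold of all members, 17.3 in deleted cells (chr19:55743320-55745635) and 15.1 in control cells (chr19:55743347-55745604), about 2 kb past the upstream start. Those values are percentile 99.3 of the genes with a deleted peak and 98.6 of those with a control peak. Of its peaks, 22 deleted and 7 control ones overlapped nothing in the other list, the most of any member in each list. The most enriched of them was a deleted-only peak of 5.37 at chr19:55836240-55836502, inside the gene.

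Tcf7l2 also held a strong difference of rank in the other direction. A shared peak about 7 kb past the start had a fold of 3.02 in deleted cells and 5.65 in control cells, which is percentile 10.2 of the shared peaks of the deleted list and 72.6 of those of the control list. Tcf7 had 18 deleted and 10 control peaks, all of 4.03 or less in deleted cells and 5.04 or less in control cells, and a start peak in the deleted list only (3.19). Tcf7l1, mostly a repressor, had 8 deleted and 11 control peaks. Its highest folds, 10.2 and 8.47, lay near Tgoln1, while its own start reached 5.17 in deleted and 5.25 in control cells. Lef1, with a window of 134 kb, had no peak in either list.

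**Figure D2:**
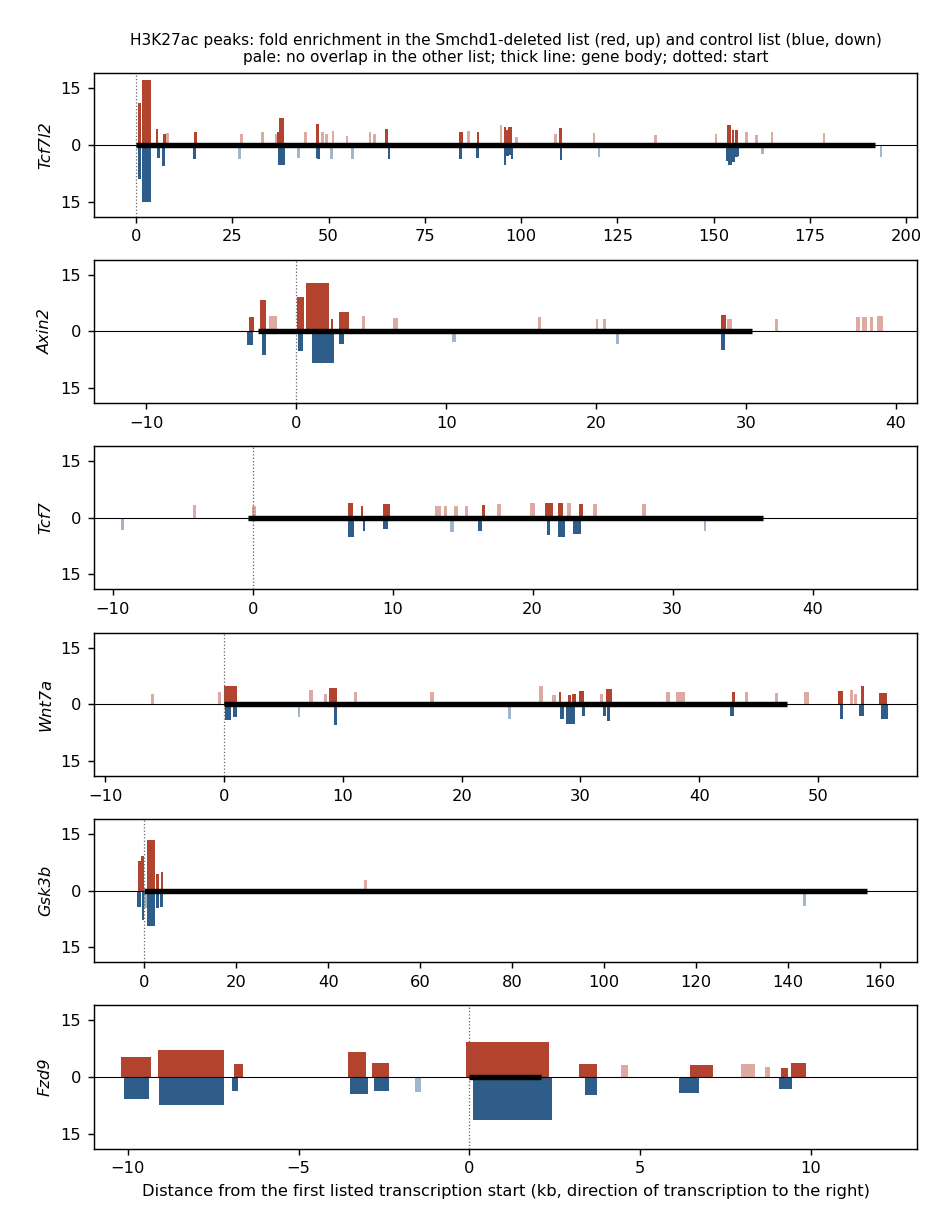
Peaks of the deleted list (red, upward) and control list (blue, downward) at Tcf7l2, Axin2, Tcf7, Wnt7a, Gsk3b and Fzd9, by distance from the first listed start in kb (x) and fold enrichment (y); pale bars overlap nothing in the other list. The tall peaks near the starts of Tcf7l2 (17.3 deleted and 15.1 control), Axin2 (12.9 and 8.27) and Gsk3b (13.4 and 9.28) are shared, while the pale bars are low and mostly in the deleted list.

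Rnf43 and Znrf3, the ubiquitin ligases that remove Frizzled from the cell surface, had peaks in both lists. Znrf3 had 20 deleted and 9 control peaks, of which 14 and 3 had no partner, and its highest fold was 6.14 in deleted and 5.65 in control cells. Rnf43 had 5 peaks in each list, with its highest folds of 7.14 and 7.00 next to Supt4a. Away from other genes Rnf43 reached 5.37 in deleted and 4.04 in control cells, and neither of its 2 listed starts had a peak.

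The secreted inhibitors had few peaks, 6 in deleted and 1 in control cells over 4 genes. Sfrp2, a Frizzled-related protein that binds Wnt ligands, had a start peak in both lists, of 3.69 in deleted and 3.83 in control cells. Sfrp1, from the same family, had a single peak of 3.53 in its flank, in the deleted list only (chr8:23402029-23402282). Dkk3, a divergent member of the Dickkopf family, had 3 intragenic peaks in the deleted list only, of 3.33, 3.19 and 3.19. The pileups of these 4 deleted-only peaks were 18 to 20, or 14 to 15.6 scaled to the control depth. Dkk1, which blocks Lrp5 and Lrp6, had no peak in either list.

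**Figure D3:**
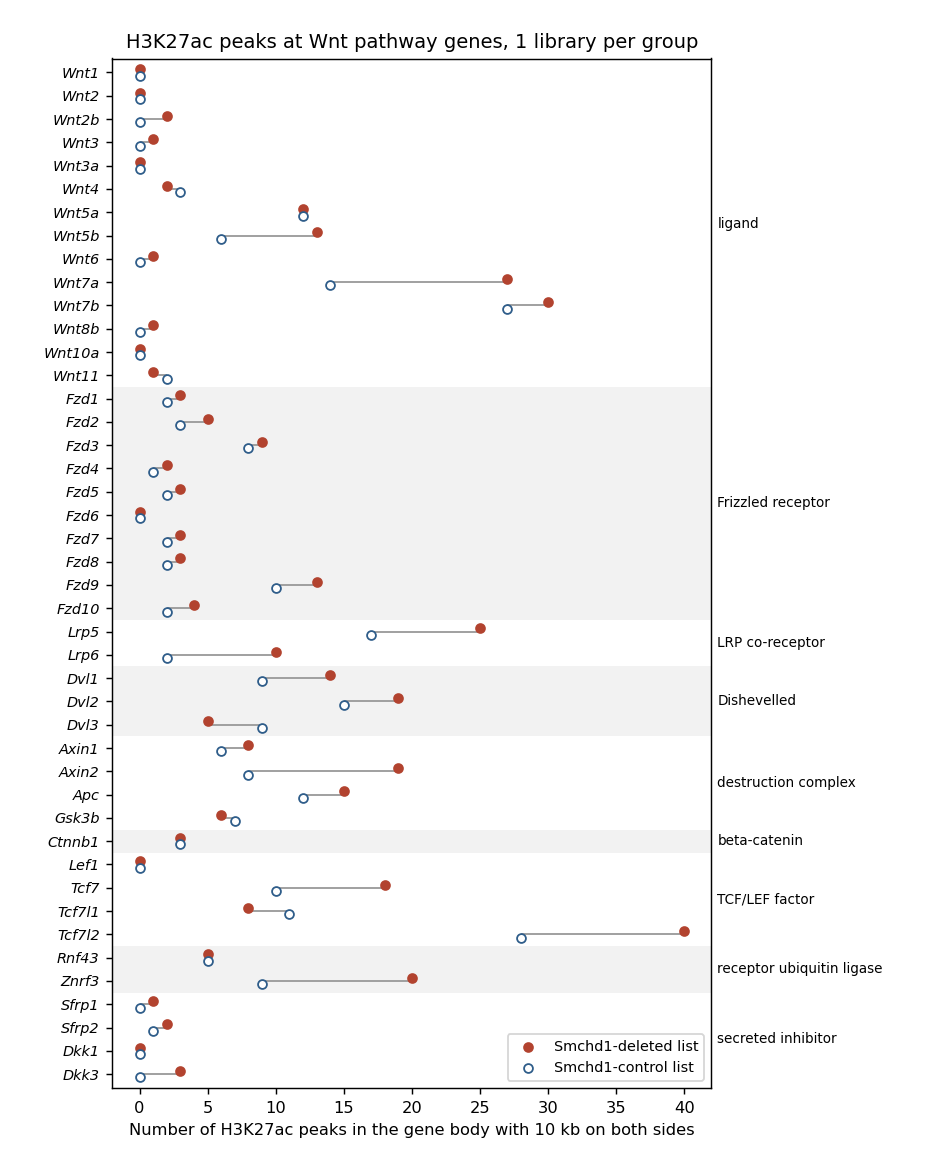
Number of H3K27ac peaks (x) in the window of each of the 44 genes (y, grouped by role), filled for the deleted list and open for the control list, 1 library per group. Tcf7l2 has the most, 40 in deleted and 28 in control cells, and Lrp6 the widest ratio, 10 against 2.

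**Figure D4:**
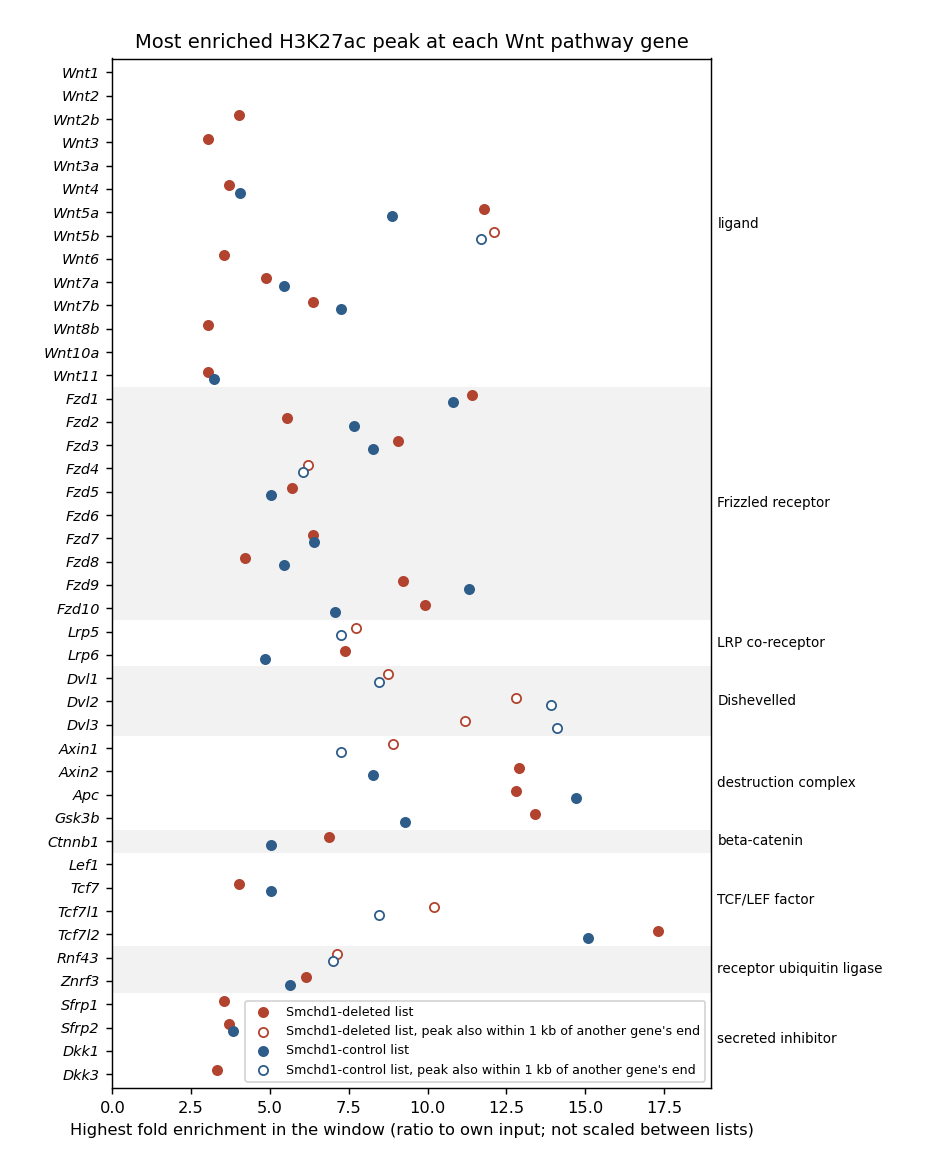
Highest fold enrichment (x) in the window of each gene (y, grouped by role) in the deleted list (red) and control list (blue). Points are open where that peak is also within 1 kb of an end of another protein-coding gene. The fold is the ratio of ChIP signal to background, which the axis names as own input. Genes with no point have no peak; the deleted-only genes lie between 3.02 and 4.03, and Tcf7l2 is highest at 17.3 in deleted and 15.1 in control cells.

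Pooled over the members, peak numbers followed the lengths of the lists. Member windows held 356 distinct peaks of the deleted list and 248 of the control list, a ratio of 1.44, which is also the ratio of the whole lists (1.44) and close to that of all protein-coding windows (1.41). Among peaks with a fold of at least 5 the members had 78 and 70, a ratio of 1.11, against 1.04 in the whole lists. Of the 31 members with peaks in both lists, 23 had more in the deleted list, 3 had equal numbers and 5 had more in the control list. Among the 13925 protein-coding genes with peaks in both lists, 60.6% had more in the deleted list and 13.2% more in the control list. At 7 of the 31 members the deleted list had at least 2 times the peaks, against 23.2% of those protein-coding genes. Gene by gene, the members' median ratio was higher, 1.47 against 1.27 for the protein-coding genes, a difference that was not tested.

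Most of the excess lay in weak peaks. Of the deleted member peaks, 171 of 356 (48.0%, exact 95% interval 42.7 to 53.4) overlapped no control peak, against 50.6% of the whole list. Of the control member peaks, 51 of 248 (20.6%, 15.7 to 26.1) overlapped no deleted peak, against 24.3% of the whole list. Below a fold of 5 the shares were 59.7% for the deleted and 28.1% for the control members, and at 5 or above they were 6.41% (2.11 to 14.3) and 1.43% (0.0362 to 7.70). The members' shares were near those of the whole lists, 62.9% and 33.6% below 5 and 4.17% and 1.28% at or above it. Scaled to the control depth, the 171 deleted-only member peaks had a median pileup of 14.8 tags (10.9 to 33.5), and 16 of them (9.36%) fell below the lowest control pileup of 12, against 8.72% in the whole list.

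**Figure D5:**
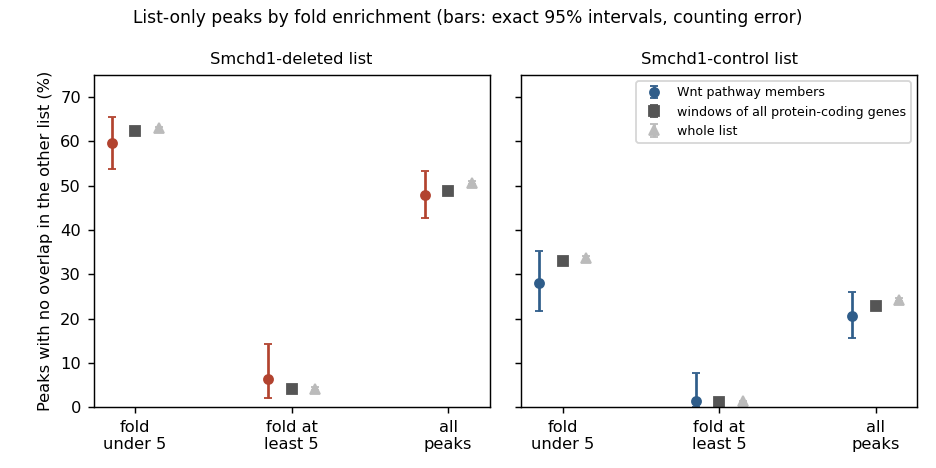
Share of peaks (%) with no overlap in the other list, by fold enrichment below 5, at least 5 or all, in the deleted list (left) and control list (right), for member windows, all protein-coding windows and the whole list; bars are exact 95% intervals covering counting error only. Member shares of 48.0% (deleted) and 20.6% (control) lie near the whole-list shares of 50.6% and 24.3%.

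A transcription start was listed for 30 of the 44 members, 16 of which (53.3%) had a peak within 1 kb of it in both lists, 2 only in the deleted list (Wnt5b and Tcf7), 0 only in the control list and 12 in neither. Among 17274 protein-coding genes with a listed start the classes took 51.2%, 5.11%, 0.839% and 42.9%. Of the 12 members with a bare start, 9 are ligands (Wnt1, Wnt2, Wnt2b, Wnt3, Wnt3a, Wnt4, Wnt6, Wnt8b and Wnt11), and the others are Lef1, Rnf43 and Dkk1. All listed starts of Frizzled, Dishevelled and destruction complex genes and of Ctnnb1 had a peak in both lists. Peaks within 1 kb of an own start were list-only in 6 of 31 cases in the deleted list (19.4%, exact 95% interval 7.45 to 37.5) and in 2 of 29 in the control list (6.90%, 0.846 to 22.8). Elsewhere in the windows of those 30 genes the shares were 53.8% of 184 deleted peaks (46.3 to 61.2) and 26.4% of 121 control peaks (18.8 to 35.2), so that the control intervals overlap. The start peaks were also the more enriched ones, with a median fold of 6.38 against 3.53 elsewhere in the deleted list and of 5.25 against 3.83 in the control list. Over all protein-coding starts the list-only shares were 19.8% of deleted and 5.12% of control peaks, near those of the members, and away from them 57.3% and 30%.

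For the 14 members with no listed start, peaks within 1 kb of either gene end were counted instead. Wnt5a, Wnt7b, Fzd2, Fzd3, Fzd8, Lrp6, Axin1, Apc and Znrf3 had one in both lists, Lrp5 in the deleted list only (3.53), and Wnt10a, Fzd6, Sfrp1 and Dkk3 in neither.

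Most summits of start peaks lay beside the starts, with 4 of 31 in the deleted list and 3 of 29 in the control list within 150 bases. In the deleted list 21 of 31 summits of start peaks were downstream of the start and 10 upstream, and in the control list 20 of 29 were downstream and 9 upstream. The start base itself was inside a peak at 6 of 40 listed starts in the deleted list and at 2 of 40 in the control list. Gsk3b and Dvl3 are examples with summits on both sides in both lists, at 457 bases before and 676 after the start of Gsk3b in deleted cells. At Fzd7 and Axin2 all start summits were downstream.

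GC content differed less between acetylated and bare member promoters than between those of genes in general. Over the promoters of 250 bases before to 50 after each start, the 18 member starts with a peak in both lists had a median GC content of 72.5% and 33 CG dinucleotides, and the 19 with a peak in neither had 65.7% and 23. Over all protein-coding promoters the medians were 61.7% and 22 with a peak in both lists and 49.0% and 4 with none. The bare promoters of Wnt1 and Wnt3a held 26 and 45 CG dinucleotides over these 300 bases, above that median of 4, whereas those of Wnt8b (6) and of the middle listed start of Wnt5b (4) were near it.

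The binding motif of TCF/LEF factors was searched in these promoters as CTTTGAT or CTTTGTT on either strand. It was found in 6 of 40 member promoters (15%), in 1 promoter each of 6 of the 30 genes, against 8.07% of 21045 protein-coding promoters. The shorter CTTTGA, which overlaps the first motif, was found in 15% of member and 14.4% of all protein-coding promoters. The 6 matches are printed with the motif, or its reverse complement, in capitals, to show which members carry it. A match describes the letters only.
Wnt3 (chr11:103774182-103774210, plus strand): cctcaagtggaCTTTGTTccaactattgg
Wnt5b (chr6:119449440-119449468, minus strand): agtaagtctctCTTTGATctgctccctgt
Wnt11 (chr7:98835050-98835078, plus strand): gacgtgggcggATCAAAGcgacggtccgc
Fzd7 (chr1:59482006-59482034, plus strand): tccacagagaaAACAAAGcgcgctattgg
Tcf7l2 (chr19:55895296-55895324, plus strand): aaaatatcaggCTTTGTTcttttgattga
Dkk1 (chr19:30549577-30549605, minus strand): tcccatcccggCTTTGTTgtcttccctga
Of these starts, those of Fzd7 and Tcf7l2 (its internal start) had H3K27ac peaks in both lists, that of Wnt5b in the deleted list only, and those of Wnt3, Wnt11 and Dkk1 in neither. The Axin2 promoter stretch printed above held no match.

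Peaks that overlapped 1 to 1 allowed a comparison of rank within each list, a measure added after the data were seen. Member windows held 142 such pairs, and the percentile of fold enrichment among shared peaks, deleted minus control, had a median of -1.24 points (quartiles -11.8 and 10.5). At 23 pairs (16.2%) the percentile was at least 20 points higher in the deleted list and at 23 (16.2%) at least 20 points lower. Over all 35969 pairs these shares were 15.4% and 16%. The largest gains were at a peak next to Fzd3 that is also within 1 kb of an end of Fbxo16 (51.9 points), at Wnt7a (50.8) and at Axin2 (43.8, the peak 3.09 kb past its start). The largest losses were at Fzd3 (-69.9, with folds of 2.1 in deleted and 5.45 in control cells), Tcf7l2 (-62.3) and Dvl2 (-52.2). Member peaks thus shifted in rank in both directions about as often as shared peaks in general.

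The other genes of the pathway, 61 in a list made for this comparison, were counted in the same way. Of these, 47 (77.0%) had peaks in both lists, 4 (6.56%) only in the deleted list, 1 (1.64%) only in the control list and 9 (14.8%) in neither. Their deleted-only share was below the 13.6% of the members and near the 5.48% of all protein-coding genes. The shares rest on 4 of these genes and 6 members, and their difference was not tested. Among the deleted-only genes were Notum (5.0, next to Myadml2), an enzyme that removes the lipid of Wnt proteins, and Rspo1 (3.36), an agonist. The others were the inhibitors Sfrp5 (3.86) and Frzb (3.02). All of them encode secreted proteins, but other secreted genes of the list had peaks in both lists, such as Wnt8a and Wif1. Wnt9b and Rspo2, also secreted, had peaks in neither. The control-only gene was Dkk4 (3.83), a secreted inhibitor as well. The most enriched were the kinase gene Csnk1a1, with 15.95 in deleted and 16.3 in control cells, and the target Ccnd1 (cyclin D1), with 15.4 and 14.7. Sfrp4 had 13.8 in deleted and 14.53 in control cells at a peak next to Epdr1. Ryk and Ptk7, receptors of the beta-catenin-independent branch, reached 12.6 and 12.1 in deleted cells and 9.28 and 11.3 in control cells. Bcl9l, a co-activator of beta-catenin, had 11.1 in deleted and 11.5 in control cells.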

How the data were processed

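H3K27ac ChIP-seq peak lists of 1 Smchd1-deleted and 1 Smchd1-control culture were used, each called against its own input library. Reads were processed with bcl2fastq and Bowtie 0.12.9 on mm10, per the submitters' processing notes, and the peaks were called with MACS2 2.1.0.20140616 at a q-value limit of 0.05, keeping 1 tag per position, per the file headers. The pileup is the authors' signal at the summit in overlapping tags. The fold enrichment is the authors' ratio of ChIP signal to background, which is the local input where that exceeds a floor common to the list. The deposited −log10 q-value of a peak was used only as a stricter limit. Depth was 54194233 (deleted) and 42277672 (control) tags after filtering, and a deeper library lets weaker peaks pass.

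Positions are 1-based. Gene bodies were those of RefSeq for GRCm38.p6, which has the same primary chromosomes as mm10. Starts and promoter sequences came from the RefSeq promoter table, which matched 30 of 44 members with 40 starts. No peak was counted for more than 1 member. Peaks of the 2 lists counted as shared from an overlap of 1 base upward. Shares have exact Clopper-Pearson 95% intervals, which cover counting error only, since neighbouring peaks are not independent. With 1 ChIP library per group there is no p-value and no error between replicates. Overlaps and counts were tested on simulated data. Sequences from peaks outside the promoter table were not used here.

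The members and gene lists were chosen with earlier results of these data known. All members are accounted for, with values in full for those in 1 list only, those highest in fold or number of peaks, and those with the most list-only peaks. Alternatives were other flanks, stricter peaks, lists of equal length, a larger overlap, summits only, other start windows and, added after seeing the data, leaving out peaks within 1 kb of another protein-coding gene's end. The analysis used Python 3.11.15, pandas 2.3.3, NumPy 2.4.6, SciPy 1.17.1 and matplotlib 3.10.9.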

Additional observations from a re-analysis of the deposited data

How the results depend on the processing

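Of 77 values recomputed under 12 settings, 49 stayed within 1.5 times the reported count or within its interval and 28 moved. These labels do not record a change of direction between the lists. Under the other flanks, peak limits, list lengths and overlaps, counts and shares were computed for the members only. Whether they follow the whole lists at the same settings was not tested. Members in 1 list only were 6 deleted and 0 control as reported, but 1 deleted and 3 control at a fold of at least 5. Without a flank, 1 member (Wnt4) had peaks in the control list only. With a flank of 50 kb, 1 member was in the deleted list only (Sfrp1), 1 in the control list only (Fzd6) and 2 in neither (Wnt2 and Dkk1), with 615 deleted and 424 control peaks. At −log10 q of at least 5, 2 members were in the deleted list only (Wnt2b and Sfrp2) and 13 in neither, with 187 deleted and 143 control peaks and list-only shares of 38.5% and 14.7%. At a fold of at least 5 in both lists, 1 member was in the deleted list only (Lrp6), 3 in the control list only (Wnt7a, Fzd8 and Tcf7) and 16 in neither, with 78 deleted and 70 control peaks, 28.2% of the deleted ones list-only. With lists of equal length, 4 members were in the deleted list only (Wnt2b, Wnt6, Sfrp1 and Dkk3) and 1 in the control list only (Wnt11), and the list-only shares were 36.5% of deleted and 27.8% of control peaks. Where sharing needed overlap of most of each peak, 69.1% of deleted and 55.6% of control peaks were list-only. With a start window of 2500 bases, 1 member had a start peak in the deleted list only. Leaving out peaks within 1 kb of another gene's end put 7 members in the deleted list only, Fzd4 being the added one. The secreted deleted-only genes therefore depend on weak peaks, and only Wnt2b of the 6 remained in the deleted list only at the stricter q-value. No paired analysis was possible because each group had 1 ChIP library. Depth differed between the libraries, and its part in the deleted-only peaks was not tested. Scaled to the control depth, 16 of the 171 deleted-only member peaks fell below the lowest control pileup of 12. Another 121 lay at least 2 tags above it, as did 31102 of 46366 such peaks in the whole list. No limit on the members' acetylation follows from a missing peak.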
